A study of Mus musculus with 8 samples.

Results

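The Wnt pathway genes described here are the 45 genes of the array named as Wnt ligands, Frizzled receptors, secreted frizzled-related proteins or Dickkopf proteins, together with Sostdc1, Wif1, Frzb, Lrp5, Lrp6, Axin2, Lef1 and Tcf7l2. They were chosen by gene name, with earlier results of these data known. Every probe of a chosen gene was kept, which gave 58 of the 55681 probes on the array. Their RNA was measured in the nucleus accumbens (NAc), the part of the ventral striatum that processes reward and motivation, of adult male mice of the C3H/Hen strain. In the maternal separation (MS) group (n = 4), pups were taken from their dams every day between postnatal days 2 and 14 while the dams received unpredictable stressors. In the control group (n = 4) the litters stayed undisturbed. All mice were weaned on postnatal day 21, later worked in an operant task for palatable food, and were fasted before the NAc was punched from frozen brain slices. Each mouse gave 1 array. Whole litters were assigned to a group, and weaned mice were caged by group. The individual numbers are 6.2, 8.2, 8.4 and 8.5 in controls and 5.3, 7.2, 7.4 and 7.6 in MS mice. What the first digit stands for is not stated, nor whether mice of a group shared a litter or cage. The p-values therefore measure the spread between these mice and not between litters, and effects of litter or cage cannot be told apart from MS.

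Wnt proteins are secreted lipid-modified ligands that bind a Frizzled receptor and an LRP co-receptor on the cell surface. Binding halts the destruction of beta-catenin, which then enters the nucleus and activates genes together with factors of the TCF/LEF family, while other Wnt signals act through Frizzled receptors without beta-catenin. Secreted antagonists act outside the cell: frizzled-related proteins and Wif1 bind the ligands, whereas Dickkopf proteins and Sostdc1 bind the LRP co-receptors. In the adult brain the pathway is known for roles in synapse maintenance, in blood vessels and in neural progenitors.

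Among the secreted antagonists, Sfrp2, Sfrp5 and Sfrp4 were lower in every MS mouse than in every control mouse, by 1.95, 0.96 and 0.41 on the log2 scale. Sostdc1 was above background in control mice alone, while Dkk3 was higher in every MS mouse by 0.38. For Sostdc1 the bound was 3.85-fold higher in controls on the background-subtracted scale used here. Its log2 difference was -0.70 with another background correction (normexp) and -0.99 in the deposited table. The other 3 antagonists tested did not separate the groups. Among ligands and receptors no gene separated the groups. None of the 43 Wnt pathway probes that could be tested passed an adjusted p of 0.05 (limma, adjusted over all 33111 probes tested), a threshold that 0.00302% of all probes passed. At an unadjusted p of 0.05 there were 12 of them, 8 lower and 4 higher in MS, where the shares of all probes were 14.1% in either direction, 7.71% lower and 6.35% higher. Sfrp2, Sostdc1 and Sfrp5 are among the genes that the study called on the same arrays, so their direction here is not independent evidence.

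Each level below is the log2 of a probe's background-subtracted signal relative to the 75th percentile of its array, so that levels of 1 probe can be compared between arrays but not between probes. A difference is the MS mean minus the control mean, with the standard error (SE) of the limma fit. Testing was limited to probes that stood well above background on 4 or more of the 8 arrays. This left 43 probes of 37 genes, and 15 probes were too dim, among them all probes of 8 genes. The share of all probes well above background lay between 57.3% and 69.7% per array, highest on the array of control mouse 4, and all 8 arrays lay on 1 slide. The 10 marker genes of medium spiny neurons, the main neurons of the NAc, stood above background on every array, all 8.

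The probes of the antagonists that separated the groups are shown first, since the finding rests on single probes and a reader can locate each one from it. The first 30 of the 60 bases of each probe are given 5′ to 3′ in lower case, with the position of the whole probe in genome build mm9, in the order Sfrp2 (chr3:83577864-83577923, plus strand), Sostdc1 (chr12:37044197-37044256, plus strand), Sfrp5 (chr19:42272509-42272568, minus strand), Sfrp4 (chr13:19724488-19724547, plus strand) and Dkk3 (chr7:119259556-119259615, minus strand). They lie on 5 different chromosomes, so no shared neighbourhood was among them.
Sfrp2: tcggcatctaagtcttcaaacatttcgttg
Sostdc1: tctcaagatgtaatgagtagtttgcagtga
Sfrp5: attattgctactgctgtggggccgctgatt
Sfrp4: cacagttgtctgtgtgcatactgtgtaaga
Dkk3: gcctgtaaatcgcatctgaagataccacag

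Sfrp2, a frizzled-related protein that binds Wnt ligands, had levels of -2.59, -2.26, -3.19 and -1.95 on the arrays of control mice 1 to 4, and of -4.55, -4.76, -4.31 and -4.16 on those of MS mice 1 to 4. All 4 MS mice lay below all 4 control mice, and the lowest control mouse was still clearly above the highest MS mouse. The control mean was -2.50 ± 0.53 and the MS mean -4.45 ± 0.26 (SD, n = 4 each). The difference was -1.95 (SE 0.25), a level 3.86-fold higher in controls, with an adjusted p of 0.0633 in limma and a 95% interval from -2.53 to -1.37. Within the upper row of the slide it was -2.23 and within the lower row -1.66. With another background correction (normexp) the difference was -0.76, and in the deposited log2 table it was -1.02, with limma adjusted p-values of 0.00469 and 0.0149. The size of the difference thus depended on how background was treated, and its sign did not under any of these.

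Sostdc1 encodes a secreted protein that binds LRP co-receptors and also blocks bone morphogenetic proteins. Its brighter probe had levels of -3.34, -3.41, -3.73 and -2.34 in the control mice and of -5.24, -5.98, -6.98 and -6.17 in the MS mice. It was well above background on all 4 control arrays and on 0 of the 4 MS arrays, so it entered the test through the controls alone, and only a bound can be given. On this scale the bound was 3.85-fold higher in controls. It rests on the lowest signal flagged above background on each array, which is not a detection limit, so it is no minimum for other scales. The fitted difference was -2.89 (SE 0.39, 95% interval -3.79 to -1.99) with a limma adjusted p of 0.0633. With normexp it was -0.70 and in the deposited table -0.99, with limma adjusted p-values of 0.00495 and 0.0142. The other Sostdc1 probe, 276 bases further along the same strand, was well above background on 1 array only, that of control mouse 4, and was not tested. Its levels were -6.18, -6.25, -6.14 and -4.68 in controls and -6.37, -7.51, -6.94 and -7.25 in MS mice, which did not overlap either but were dim throughout.

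Sfrp5, a further frizzled-related protein, was well above background on all 8 arrays. Its levels were -0.03, -0.08, 0.06 and 0.20 in the control mice and -1.06, -1.21, -1.0 and -0.42 in the MS mice. The groups did not overlap, and MS mouse 4 lay closest to the controls. The difference was -0.96 (SE 0.17, 95% interval -1.34 to -0.59), that is 1.95-fold higher in controls, with a limma adjusted p of 0.0843. It was -0.79 with normexp and -0.86 in the deposited table, so it changed less with the background than that of Sfrp2.

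Sfrp4 had levels of -3.11, -2.94, -3.18 and -2.71 in controls and of -3.38, -3.32, -3.22 and -3.64 in MS mice. Every MS mouse was below every control mouse, but the gap between the closest mice was small. The difference was -0.41 (SE 0.13) with a limma adjusted p of 0.224, and it was -0.21 with normexp and -0.20 in the deposited table. Dkk3, a Dickkopf protein that differs from its relatives in binding LRP co-receptors poorly, if at all, went the other way. Its levels were 3.29, 3.52, 3.52 and 3.31 in controls and 3.62, 3.78, 3.84 and 3.93 in MS mice. Dkk3 was higher in every MS mouse than in every control mouse, by 0.38 (SE 0.09, 95% interval 0.17 to 0.59) or 1.30-fold, with a limma adjusted p of 0.144. The groups of Sfrp2, Sostdc1, Sfrp5, Sfrp4 and Dkk3 did not overlap. Their signs within each row and column of the slide were thereby fixed and are no check on slide position.

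**Figure D1:**
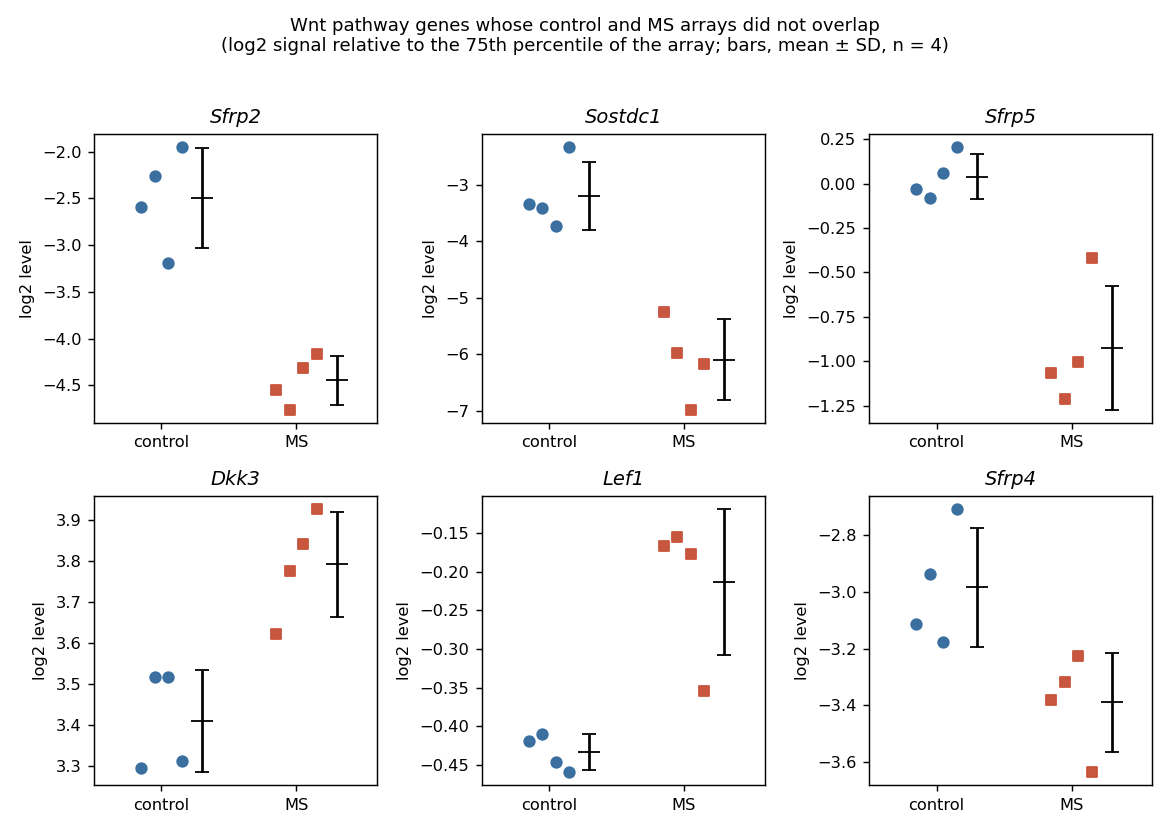
Log2 levels relative to the 75th percentile of the array for the 6 Wnt pathway genes whose groups did not overlap, with control mice as blue circles, MS mice as red squares and bars for the mean ± SD (n = 4). Each panel has its own vertical axis, and Sfrp2, Sostdc1, Sfrp5 and Sfrp4 lie lower in MS mice while Dkk3 and Lef1 lie higher.

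The remaining antagonists did not separate the groups. Sfrp1 differed by -0.07 (SE 0.19), Frzb, another frizzled-related protein, by -0.11 (SE 0.40) and Wif1 by 0.07 (SE 0.36), all with limma adjusted p-values over 0.9, and the signs of Frzb and Wif1 turned in the deposited table and with normexp, respectively. Frzb varied most among the MS mice, from -4.78 in MS mouse 1 to -2.62 in MS mouse 3, so that its 95% interval ran from -1.02 to 0.80. Dkk1 and Dkk2, the Dickkopf proteins best known for blocking LRP co-receptors, were not above background on any array. Dkk4 was above background on 1 control and 1 MS array. Of the 8 antagonist probes tested, 5 (62.5%) thus had groups that did not overlap, against 8.67% of all probes tested (4.91% lower and 3.76% higher), and they were 4 of the 4 Wnt pathway probes lower without overlap and 1 of the 2 higher. Without Sostdc1, which was tested because of its level in controls, the share was 4 of 7 (57.1%). The genes were chosen with earlier results of these data known, and the study called Sfrp2, Sostdc1 and Sfrp5 on the same arrays. The shares are therefore a description and no evidence of enrichment. No test compared the antagonists with the other roles.

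As Sfrp2 and Sfrp5 were lower together, the 250 bases before their RefSeq start sites (GRCm38.p6) are given, Sfrp2 from chr3:83766071-83766320 on the plus strand and Sfrp5 from chr19:42202253-42202502 on the minus strand.
Sfrp2: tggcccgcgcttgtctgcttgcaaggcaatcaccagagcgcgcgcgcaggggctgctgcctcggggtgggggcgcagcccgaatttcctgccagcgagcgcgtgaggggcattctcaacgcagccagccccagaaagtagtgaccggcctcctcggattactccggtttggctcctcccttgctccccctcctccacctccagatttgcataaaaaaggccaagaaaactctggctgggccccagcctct
Sfrp5: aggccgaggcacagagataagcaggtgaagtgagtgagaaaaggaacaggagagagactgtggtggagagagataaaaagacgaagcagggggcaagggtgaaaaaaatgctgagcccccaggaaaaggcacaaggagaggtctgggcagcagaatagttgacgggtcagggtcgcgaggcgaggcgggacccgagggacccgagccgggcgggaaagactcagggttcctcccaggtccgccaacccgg
The core letters bound by TCF/LEF factors, CTTTGAA or CTTTGAT on either strand, were not in these windows or in the 50 bases after the start. They were in 8.65% of the 32851 promoters of this length in the table and in 3 of the 37 promoters matched to 30 of the 45 Wnt pathway genes, those of Wnt5b, Wnt11 and Dkk1. These matches describe letters only. Sostdc1, Sfrp4 and Dkk3 were not among the 30 matched genes, so their promoters were not searched.

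The summed levels of pallidal, of hypothalamic and preoptic, and of septal markers were lower in MS mice alongside the antagonists. Those of thalamic and habenular and of cortical excitatory markers overlapped between the groups. All 7 tested markers of pallidal neurons (of 8) were lower in MS without overlap, where 5.25% of all genes were. The list's summed linear level was 10.3 to 17.5 in controls and 4.21 to 8.46 in MS mice. The 9 hypothalamic and preoptic markers summed to 9.60 to 15.4 in controls and 5.01 to 7.79 in MS mice. Of the 6 of them that were tested, 4 were lower without overlap and 1 was higher in sign. In limma 1 of the 6 passed an adjusted p of 0.05, at 0.00744, where 0.00439% of all genes did. The 6 septal markers summed to 8.80 to 11.2 in controls and 7.4 to 8.35 in MS mice, with 3 of the 6 lower without overlap and 2 higher in sign. The summed level of the astrocyte list was also lower, at 77.2 to 89.5 against 63.3 to 69.6, with 4 of 10 markers lower without overlap. Of the 10 markers 2 were higher in sign, and the median difference was -0.26. The sum over meningeal fibroblast markers was 66.3 to 74.0 in controls and 50.4 to 61.8 in MS mice, but among its 7 tested genes Ptgds alone did not overlap and the median difference was -0.09. Markers of medium spiny neurons were higher in sign in 10 of 10, with overlapping sums of 598 to 929 in controls and 859 to 1034 in MS mice. All 8 oligodendrocyte and all 7 microglia markers were lower in sign. Of the 6 markers of oligodendrocyte precursors, 3 were lower without overlap and 1 was higher in sign. The sums of these lists overlapped as well. The study had reported Npas1 and Pvalb of the pallidal list and Agt of the astrocyte list as affected on the same arrays. The lists were drawn with earlier results known, so they are not independent evidence. The part of these shifts in the antagonist values was not tested. Where each punch was taken is not given per mouse, so tissue from outside the NAc in a punch cannot be told apart from MS. Fewer cells of a type cannot be told apart from less RNA per cell in a punch either.

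Markers of the choroid plexus, the secretory epithelium of the ventricles, were too dim to be tested in 4 of 10 cases. Its defining marker Ttr was well above background on 1 of 8 arrays, Kcne2 on 0, and Aqp1 and Slc4a5 on 1 each. The sum of its 10 markers overlapped between the groups, at 5.77 to 7.14 in controls and 5.75 to 6.47 in MS mice. Of its 6 tested markers 2 had an unadjusted p under 0.05, the prolactin receptor Prlr at -1.73 (SE 0.65) and the transcription factor Otx2 at -0.64 (SE 0.19), both with overlap, where 13.8% of all genes had such a p. The other 4 were higher in sign, up to 0.47, and the median of the 6 was 0.07. The sum of the 6 ependyma markers overlapped as well, at 3.04 to 3.81 against 2.87 to 4.04. In all, 5 of 15 marker lists had sums that did not overlap. Each sum adds linear levels over probes of unlike brightness, so it follows its brightest probes. No share was computed for sums over other lists, so the count is a description only.

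The ligands were 19 genes with 23 probes, of which 15 probes of 14 genes were tested. None of them had groups that did not overlap, 8 genes were lower and 6 higher in sign, and the lowest limma adjusted p was 0.352. Wnt7b, a ligand known for dendrite growth and for brain vessel formation, came closest to a difference. Its levels were -1.74, -2.14, -1.83 and -1.93 in controls and -2.17, -2.09, -2.31 and -2.03 in MS mice, and the groups overlapped through control mouse 2. The difference was -0.24 (SE 0.10).

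The other ligands overlapped between the groups as well. Wnt7a, which acts on synapses, differed by 0.12 (SE 0.09), Wnt5a, a main ligand of signalling without beta-catenin, by -0.33 (SE 0.17), and Wnt3 by -0.18 (SE 0.14). Both tested Wnt4 probes were lower in sign, by 0.31 and 0.40 (SE 0.21 and 0.30). The 95% intervals of the 15 ligand probes reached from -1.08 to 1.16, with a median half-width of 0.37, so that for a typical ligand a difference smaller than that could not be told from 0. The 5 ligand genes that were not tested were Wnt3a, Wnt8a and Wnt9b, above background on no array, and Wnt2b and Wnt8b, above background on 1 MS array each.

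Wnt genes lie in pairs on several mouse chromosomes, and neighbours did not always share their detection here. The probes of Wnt3 and Wnt9b on chromosome 11 lie 90.1 kb apart, and Wnt3 was above background on 8 arrays but Wnt9b on 0. The probes of Wnt3a and Wnt9a, also on chromosome 11, lie 85.3 kb apart, and Wnt9a was above background on 7 arrays but Wnt3a on 0. In the pair on chromosome 15 (21 kb apart), 1 of the 2 Wnt1 probes and the Wnt10b probe were above background on all 8 arrays, with differences of 0.0099 (SE 0.09) and 0.26 (SE 0.17). In the pair on chromosome 1 (19.1 kb), Wnt10a was above background on 8 arrays and Wnt6 on 4, of which 1 was a control array.

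The 10 Frizzled genes, the receptors of the Wnt ligands, had 13 probes, and each gene had a tested probe. None separated the groups, with 7 genes lower and 3 higher in sign and differences between -0.35 and 0.20. Fzd9 had the most negative one. Its levels were 0.30, -0.18, 0.22 and 0.39 in controls and -0.04, -0.27, -0.05 and -0.29 in MS mice, where control mouse 2 lay within the MS range. The difference was -0.35 (SE 0.13) with a limma adjusted p of 0.302.

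Fzd3, a receptor needed for axon guidance, had the most positive difference. Its levels were -0.64, -0.73, -0.49 and -0.66 in controls and -0.36, -0.33, -0.60 and -0.43 in MS mice. MS mouse 3 lay within the control range, and the difference was 0.20 (SE 0.09, limma adjusted p 0.341). Fzd4, the receptor of brain vessels, differed by 0.17 (SE 0.09) and Fzd1 by -0.33 (SE 0.15), and in both the groups overlapped. The 95% intervals over the 11 tested receptor probes reached from -0.80 to 0.40.

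Of the LRP co-receptors, Lrp6 was represented by 2 probes. The first had levels of 1.74, 1.89, 1.74 and 1.69 in controls and of 1.97, 2.00, 1.90 and 1.88 in MS mice, and only control mouse 2 lay within the MS range. Its difference was 0.17 (SE 0.07, limma adjusted p 0.324). The second had levels of -1.84, -1.83, -1.77 and -1.87 in controls and of -1.55, -1.55, -1.97 and -1.87 in MS mice, with a difference of 0.09 (SE 0.11). MS mice 1 and 2 were high on the second probe and MS mice 3 and 4 were not, so the groups overlapped.

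Lrp5, the related co-receptor, had levels of 0.30, 0.44, 0.47 and 0.15 in controls and of 0.58, 0.14, 0.21 and 0.32 in MS mice. The groups overlapped over most of their range, and the difference was -0.03 (SE 0.12) with a 95% interval from -0.29 to 0.23, and 0.0092 when arrays were scaled to their medians. The co-receptors that several of the antagonists bind thus had fitted differences of at most 0.17 in size. The 95% intervals of their 3 probes reached from -0.29 to 0.34.

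**Figure D2:**
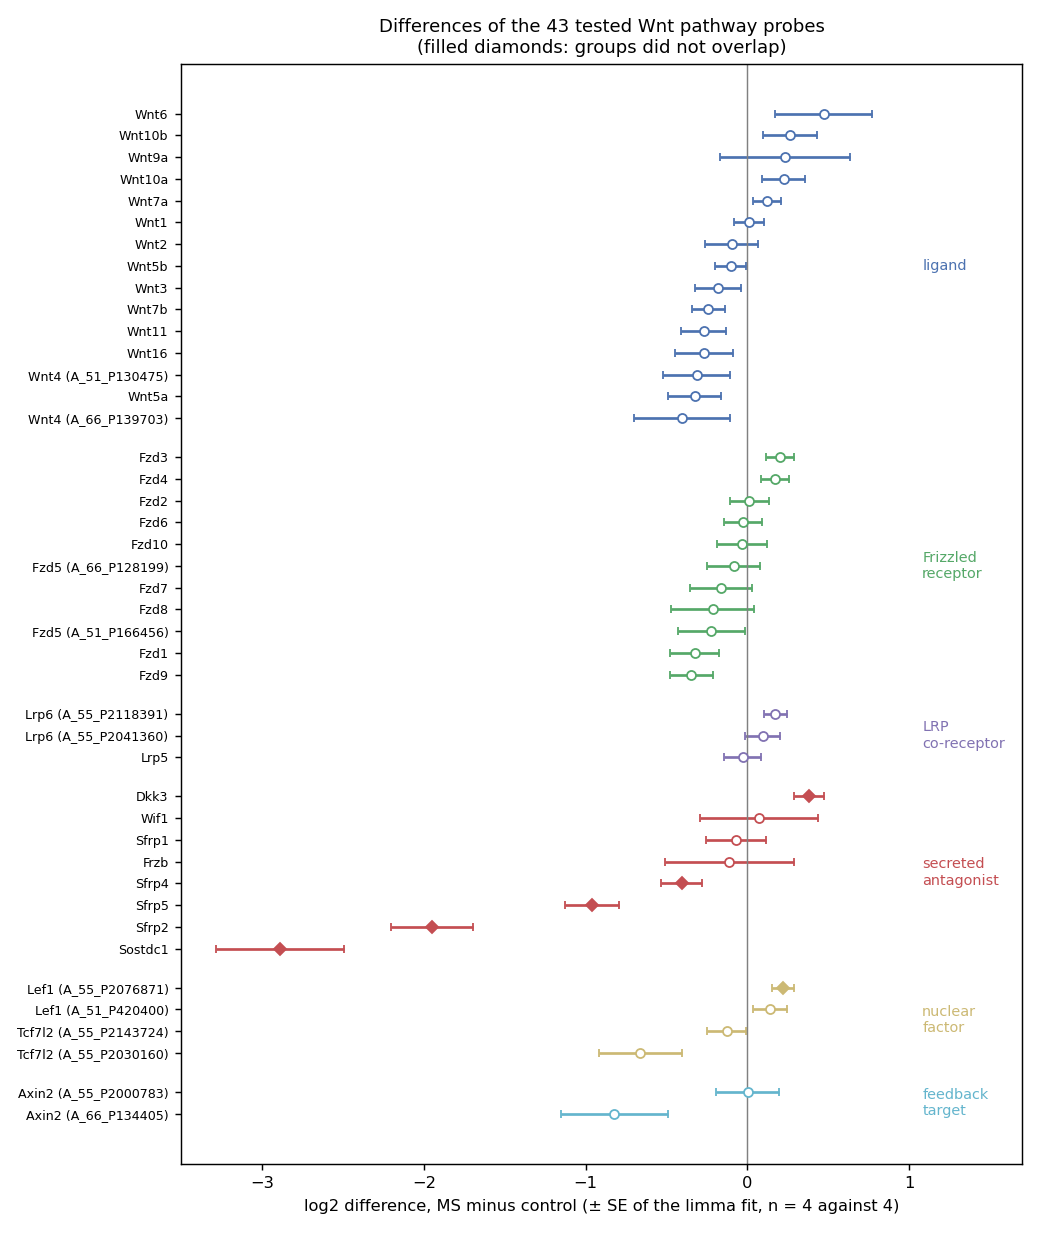
Log2 differences, MS minus control, of the 43 tested Wnt pathway probes grouped by role, with bars for the SE of the limma fit (n = 4 against 4). Filled diamonds mark the 6 probes whose groups did not overlap, of which 5 are secreted antagonists, with Sfrp2 at -1.95. The point of Sostdc1 is a fitted value against MS arrays that were all dim, for which a bound of 3.85-fold is given on this scale only.

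Lef1 and Tcf7l2 encode DNA-binding partners of beta-catenin, and their differences had opposite signs. On the brighter Lef1 probe, levels were -0.42, -0.41, -0.45 and -0.46 in controls and -0.17, -0.16, -0.18 and -0.35 in MS mice. Control mice were tightly grouped, MS mouse 4 lay apart from the other MS mice, and the groups did not overlap. The difference was 0.22 (SE 0.07, limma adjusted p 0.221), or 1.16-fold. The other Lef1 probe, which starts in an upstream part of the gene, had levels of -1.83, -1.78, -1.94 and -2.23 in controls and -1.70, -1.85, -1.78 and -1.88 in MS mice, and a difference of 0.14 (SE 0.11) with overlap.

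The 3 Tcf7l2 probes lie up to 189 kb apart on chromosome 19, and their first 30 bases are shown because their differences were unlike in size. Positions in mm9 are chr19:55817272-55817331 for the upstream probe, chr19:55994029-55994088 for the middle probe and chr19:56006638-56006697 for the downstream probe, all on the plus strand.
Upstream Tcf7l2 probe: agacggcctccgcctcgctccgaaagtttc
Middle Tcf7l2 probe: caaaatactacgagctggcccggaaggaac
Downstream Tcf7l2 probe: tgttatgtagttcggatagcttagttttaa
The upstream probe had levels of -2.18, -2.16, -2.27 and -2.24 in controls and of -2.08, -2.53, -2.57 and -2.18 in MS mice, and a difference of -0.13 (SE 0.12). The middle probe had levels of -2.05, -2.54, -2.66 and -1.83 in controls and of -2.88, -3.21, -3.31 and -2.32 in MS mice, and a difference of -0.66 (SE 0.25, limma adjusted p 0.303). MS mouse 4 lay within the control range on the middle probe, and with normexp its difference was -0.35. The downstream probe was above background on 1 array, that of control mouse 4. Tcf7l2 is also known as a marker of thalamic neurons, and the thalamic and habenular list summed to 6.31 to 9.29 in controls and 5.06 to 8.93 in MS mice. Within that list Slc17a6, the vesicular glutamate transporter of subcortical neurons, was lower without overlap by 2.82 (SE 0.79), and Gbx2, a thalamic transcription factor, by 1.17 (SE 0.30). Of the 8 tested genes of the list 5 were lower and 3 higher in sign, with a median of -0.11, and Synpo2 was higher in sign by 0.55 (SE 0.20, unadjusted p under 0.05) with overlap. Their part in the Tcf7l2 values was not tested.

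Axin2, a scaffold of the beta-catenin destruction complex, is a widely used readout since it is induced by the pathway and then restrains it. Its 2 probes, 8.05 kb apart on chromosome 11, gave unlike values and are shown for that reason, the upstream one at chr11:108803927-108803986 and the downstream one at chr11:108812034-108812093 (mm9, plus strand).
Upstream Axin2 probe: tcctgggggaacagattattattgctactc
Downstream Axin2 probe: cttggtacaataattattgtaattaagaga
The downstream probe had levels of -3.58, -3.87, -3.53 and -3.62 in controls and of -3.79, -3.59, -3.10 and -4.11 in MS mice, and a difference of 0.0011 (SE 0.20), with a 95% interval from -0.45 to 0.45. The upstream probe had levels of -4.18, -3.66, -2.74 and -3.43 in controls and of -3.73, -4.11, -4.82 and -4.63 in MS mice, and a difference of -0.82 (SE 0.33, limma adjusted p 0.319). On the upstream probe, control mouse 1 and MS mice 1 and 2 lay within the range of the other group, and the difference was -1.64 within the lower row of the slide and -0.0040 within the upper row. It was -0.29 with normexp. GC content was 48.3% for the upstream and 20.0% for the downstream probe. The interval of the downstream probe spans 0, and both probes were negative with normexp, so no opposite direction was shown between them.

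**Figure D3:**
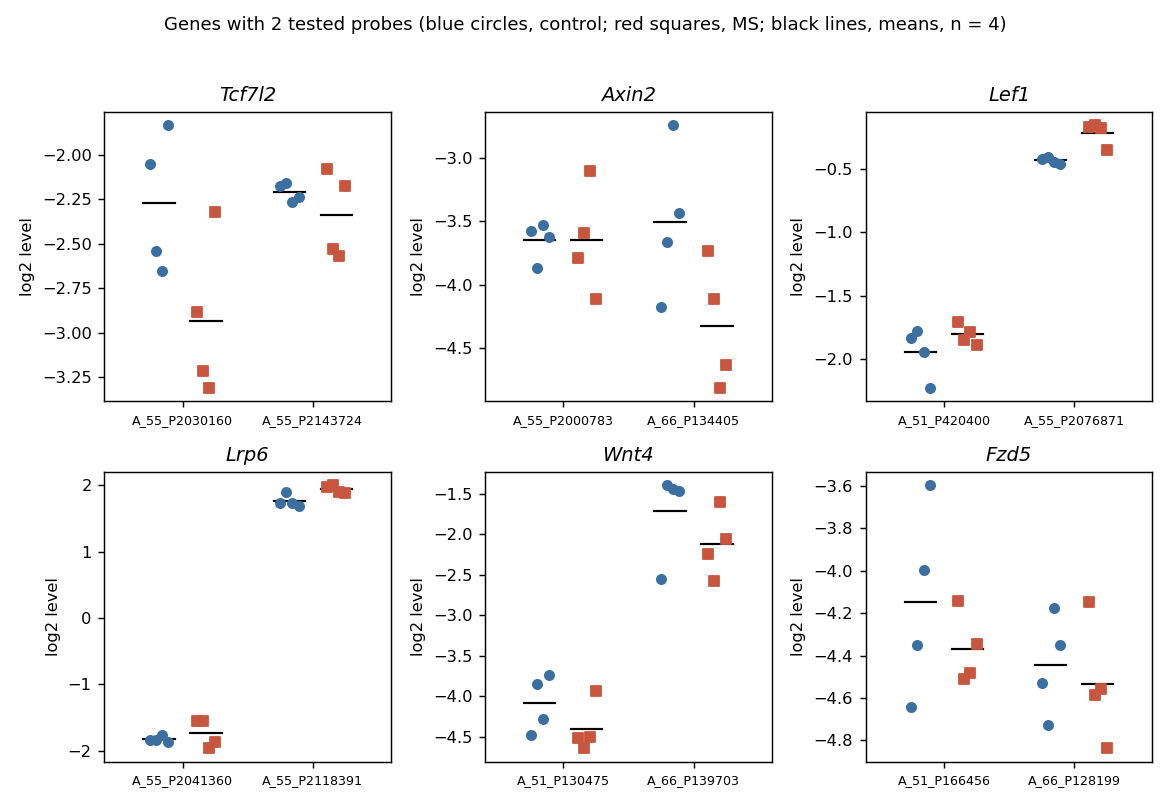
Log2 levels relative to the 75th percentile of the array for the 6 Wnt pathway genes with 2 tested probes, with control mice as blue circles, MS mice as red squares and lines for the means (n = 4). The probes of Lef1, Lrp6, Wnt4 and Fzd5 had the same sign within a gene, the middle Tcf7l2 probe (A_55_P2030160) differed by -0.66 where the upstream one (A_55_P2143724) differed by -0.13, and the Axin2 probes differed by -0.82 (A_66_P134405) and 0.0011 (A_55_P2000783).

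Over the 37 Wnt pathway genes tested, 23 were lower and 14 higher in sign, and the median difference was -0.10, against -9.6e-05 over all 22759 genes tested, and it was -0.025 in the deposited values. Groups did not overlap in 6 genes, 4 lower and 2 higher, where 8.89% of all genes did not overlap, 5.25% lower and 3.65% higher. Without MS mouse 1 there were 10 such genes, where the share of all genes was 14.4%. Of the 43 tested probes, 28 kept their sign under each alternative run.

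A further list of 87 Wnt pathway genes outside the ones above, of which 78 were tested, went both ways. It had 35 genes lower and 43 higher in sign, differences between -0.49 and 0.53 with a median of 0.02, and no limma adjusted p under 0.05, which 0.00439% of all genes had. An unadjusted p under 0.05 was found for 10 genes, 4 lower and 6 higher, where 13.8% of all genes had one, 7.98% lower and 5.85% higher. The 20 cytoplasmic components, among them beta-catenin (Ctnnb1) with a difference of -0.04 (SE 0.06), had a median of -0.03. The 12 further antagonists, of which 9 were tested, had a median of 0.08 and 0 of them separated the groups. Sost, a close relative of Sostdc1, was not tested because it was dim.

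In that list, 3 of 78 genes (3.85%) had groups that did not overlap, a share below the 8.89% of all genes, and they are given as a description. Ctnnbip1, which keeps beta-catenin from its TCF/LEF partners, had levels of 1.59, 1.68, 1.54 and 1.77 in controls and of 1.30, 1.37, 1.39 and 1.33 in MS mice. It was lower by 0.30 (SE 0.07, limma adjusted p 0.142). Tcf7, another nuclear partner of beta-catenin, was higher by 0.49 (SE 0.15, limma adjusted p 0.197), and Camk2a, a calcium-dependent kinase of excitatory synapses that some Wnt signals activate, was higher by 0.31 (SE 0.07, limma adjusted p 0.121). Ccnd1, a cell cycle gene induced by beta-catenin, differed by -0.38 (SE 0.14) with overlap.

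With other processing, up to 4 Wnt pathway probes passed the threshold. Sfrp2 passed under 7 of the 19 alternatives, Sostdc1 under 5 of the 18 that kept it, Sfrp5 under 4 and Dkk3 under 2. With normexp all 4 of them passed, where 1.47% of all probes did, and so they did with a variance trend and robust moderation, where 1.52% did. In the deposited table Sfrp2, Sfrp5 and Sostdc1 passed, where 1.2% of all probes did. Without control mouse 3, whose Sfrp2 level was the lowest of the controls, Sfrp2 alone passed, at -2.18 with a limma adjusted p of 0.0304.

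**Figure D4:**
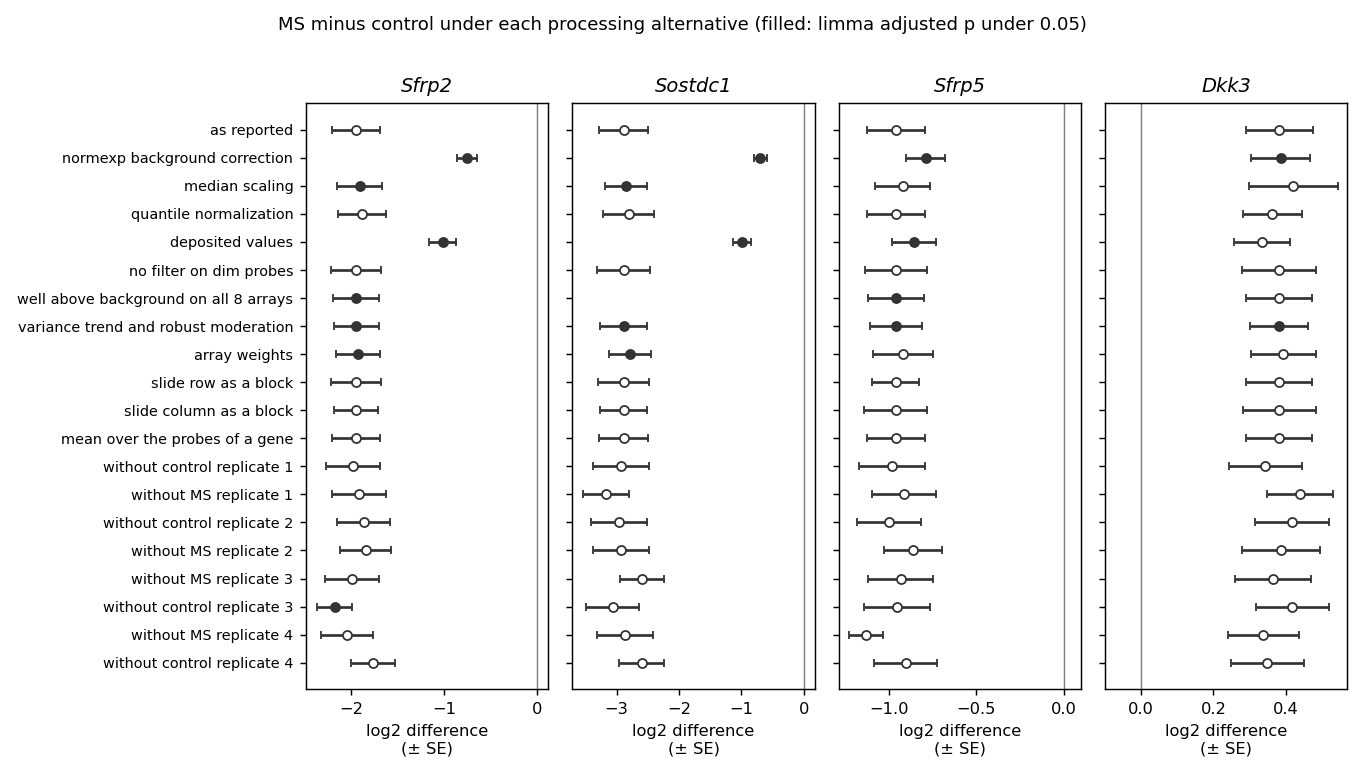
Log2 differences, MS minus control, of Sfrp2, Sostdc1, Sfrp5 and Dkk3 as reported and under each processing alternative, with bars for the SE of the limma fit and filled points where the adjusted p was under 0.05. Sfrp2 and Sostdc1 came closer to 0 with normexp (-0.76 and -0.70) and in the deposited values (-1.02 and -0.99). Each gene kept its sign throughout, which groups without overlap fix in advance when a mouse is left out. Sostdc1 has no point for probes above background on all 8 arrays, since it was dim in MS mice.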

How the data were processed

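RNA from NAc punches of 4 control and 4 MS male mice was labelled with Cy3 (40 ng of total RNA) and hybridised on 1-colour Agilent mouse arrays, 1 array per mouse, on 1 slide read in 1 scan. The authors deposited scanner files with linear intensity values per spot, made with Agilent Feature Extraction 10.10.1.1 per the submitters' processing notes, in which local background is subtracted. The authors also deposited a log2 table of 31261 probes, all found in the scanner files. It followed the log2 mean signal before background subtraction (correlation of at least 0.9997 within each array), its columns had medians of 8.01, and its values are levels, not ratios, while its normalization between arrays is not given in the sources used here. The study's own list of changed probes was not used for any value. The array design in the headers differs from that named in the methods, and probes, gene names and coordinates (mm9) are those of the headers.

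Spots flagged as outliers (122 to 189 per array) and control spots were left out, and spots of a probe were averaged. Levels are the log2 processed signal minus each array's 75th percentile. Probes that stood well above background on 4 or more of 8 arrays were compared, MS minus control, with limma 3.58.1 (lmFit, eBayes) in R 4.3.3, with Benjamini-Hochberg adjustment over all 33111 probes and a threshold of 0.05. The fit was also run on simulated data with independent noise for each probe and array, which lacks variation shared by probes or litters. That run checks the code and not the results given here. The number of arrays limits the precision. A gene with several tested probes was counted by the one with the highest mean level. Where a group had no array above background, a bound is given, the mean of the brighter group against the mean of the higher of the dim value and the lowest signal well above background on that array. Some probes above that lowest signal were not flagged, so it is not a detection limit and the bound holds on this scale only. Names were updated through the RefSeq table of GRCm38.p6, which paired 27235 probes by accession, 3581 by symbol and 565 by an older symbol, while 24300 kept the name of the array. Promoters came from RefSeq.

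The Wnt pathway genes, the list of 87 others, the 15 lists of cell type markers and the tests were chosen with earlier results of these data known. Values on every array were given for members with groups that did not overlap or an unadjusted p under 0.05, and for Lrp5, Lrp6, Axin2, Lef1 and Tcf7l2. Of other pathway genes, those without overlap were named, and Ctnnb1, Ccnd1, Sost, Slc17a6, Gbx2, Synpo2, Ptgds, Prlr and Otx2 were named after their values were seen. Alternatives were normexp background correction (offset 50), median scaling, quantile normalization, the deposited log2 values, no filter on dim probes, a filter on all 8 arrays, a variance trend with robust moderation, array weights, slide row and slide column as blocks, the mean over a gene's probes, and leaving out each mouse.

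Of the marker lists, those of cortical excitatory neurons (sums of 2.14 to 4.57 in controls and 1.96 to 4.51 in MS mice), interneurons (58.9 to 78.8 and 63.4 to 71.2), oligodendrocytes (171 to 229.5 and 158 to 215), their precursors (28.3 to 38.1 and 27.7 to 30.4), microglia (52.6 to 66.8 and 49.9 to 57.1) and endothelium with mural cells (19.5 to 20.6 and 19.7 to 22.2) overlapped between groups.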

Additional observations from a re-analysis of the deposited data

Results flagged for a closer look

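In 5 of 86 groups of 4 arrays, 1 mouse stood apart from the other 3 by Dixon's ratio, the gap to the nearest mouse over the group's range, at the 95% limit. Chance gives 5% of groups, or 4.3. For Wnt10b in the MS group the ratio was 0.86, with MS mouse 2 highest. For the Wnt4 probe A_66_P139703 in the control group it was 0.94, with control mouse 1 lowest, at -2.55. For Wnt6 in the MS group it was 0.835, with MS mouse 3 highest. For Fzd10 in the MS group it was 0.929, with MS mouse 2 highest. For the brighter Lef1 probe (A_55_P2076871) in the MS group it was 0.888, with MS mouse 4 lowest, at -0.35, which was still above all 4 control mice.

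Among probes too dim to be tested, Wnt2b had a level of -3.24 in MS mouse 4, where it was above background, and was above background on no other array. The Wnt8b probe A_55_P2140913 had a level of -1.69 in MS mouse 2 and was above background on no other array. Each signal came from 1 mouse, and neither was compared between groups.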

How the results depend on the processing

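No paired analysis was possible because the labels give control and MS mice different individual numbers. Over all probes, 1 passed the threshold as reported, against 486 with normexp, 81 with median scaling, 375 in the deposited values, 113 with the filter on all 8 arrays, 504 when eBayes had a variance trend and robust moderation, 77 for array weights, and 0 without a filter or with slide column as a block. Leaving out a mouse gave 0 to 37, the highest without control mouse 3. Of Wnt pathway probes, 0 passed as reported (12 at an unadjusted p under 0.05), 4 with normexp, 2 with median scaling, 3 in the deposited values, 2 with the filter on all 8 arrays, 4 with the variance trend, 2 with array weights, and 0 to 1 when a mouse was left out. Of the other Wnt pathway genes, 0 passed in limma as reported, 1 with normexp and 1 with the variance trend. Wnt pathway genes without overlap numbered 6, and 6 to 10 when a mouse was left out, the highest without MS mouse 1 (14.4% of all genes there). Their median difference of -0.10 was -0.044 with quantile normalization, -0.025 in the deposited values, -0.031 without a filter, and -0.11 to -0.052 when a mouse was left out, nearest 0 without MS mouse 3.

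Among 17 named probes and 321 values under alternatives, 291 kept sign and side of the threshold, 18 passed it newly and 12 turned sign. Those 12 were Lrp5, at 0.0092 with median scaling and 0.0039, 0.028, 0.0041 and 0.014 without control mouse 2, MS mouse 2, MS mouse 3 and control mouse 3 (range over all mice left out -0.12 to 0.028), and the downstream Axin2 probe, at -0.048 with normexp, -0.00071 in the deposited values, -0.045 with array weights, -0.41 as the mean of both probes, and -0.072, -0.018 and -0.18 without control mouse 2, MS mouse 2 and MS mouse 3 (range -0.18 to 0.16). The mean over both probes includes the upstream one by construction. The cause of the other changes was not tested. Dim probes, among them Sostdc1 in MS mice, are limited by signal over background.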
